A study of Mus musculus with 6 samples.

Results

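The genes of the SR proteins, the hnRNP proteins and the protein parts of the spliceosomal snRNPs were examined in Mcm8 knockout (KO) and wild-type (WT) mouse embryonic fibroblasts (MEFs). Members were the protein-coding genes whose symbols follow the Srsf, Hnrnp, Sf3a, Sf3b, U2af, Snrpa to Snrpm, Rnps1 and Tra2 naming, with Snrpn left out. This gave 57 of the 55565 genes listed: 11 SR proteins, 3 SR-related proteins (Rnps1, Tra2a and Tra2b), 20 hnRNP genes, 3 U2AF genes, 11 genes of the U2 snRNP, 2 of the U1 snRNP and 7 of the Sm core.

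Introns are cut from pre-mRNA by the spliceosome, which is built from small nuclear RNAs with their proteins. U1 marks the 5′ splice site, U2AF reads the 3′ end of the intron, and the U2 snRNP with its SF3A and SF3B parts binds the branch site. The Sm core is a ring of proteins around the snRNA of the U1, U2, U4 and U5 snRNPs, while U6 carries the related LSm ring. SR proteins mostly bind exons and favour the use of a splice site, while hnRNP proteins coat nascent RNA and often mask sites, so that the levels of both classes bear on which exons are used.

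Bulk RNA sequencing covered 3 libraries of each genotype, numbered WT1 to WT3 and KO1 to KO3, and values are given in that order. The MEFs came from trunks of E13.5 embryos of heterozygous parents of mixed C57BL/6J and ICR descent, the KO allele lacked exon 7 of Mcm8 after CRISPR-Cas9 editing, and cells of both genotypes were immortalized with a lentivirus that carries SV40gp6 and were selected with puromycin. The repeats are called biological, but whether they were separate embryos or cultures is not given in the sources used here. The p-values below therefore rest on these libraries alone. In the main edgeR fit each gene took the spread of a trend over all genes and not its own spread between the libraries. The study raised the question of splicing because several splicing proteins were pulled down with MCM8, and 7 members are on its list of such interactors. That list came from a mouse teratocarcinoma cell line and not from MEFs. From RNA sequencing the paper reported few changes of splicing, and it proposes that MCM8 may not be essential for it.

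Libraries held between 12722979 and 21022755 counts. Mcm8 itself fell from 13.8, 16.6 and 12.8 to 4.20, 4.45 and 4.12 CPM (counts scaled to library size), a log2 fold change of -1.75 (standard error 0.16). Xist and Y-linked genes also differed: Xist lay between 940 and 1359 CPM in WT and between 474 and 494 in KO, and 4 summed Y-linked genes between 24.3 and 25.9 in WT and between 108 and 126 in KO. All 8 fibroblast markers were expressed, with Thy1, Pdgfrb and Vim lower and Fn1, Col3a1 and Col1a1 higher in KO. The 6 epithelial markers summed to between 3.42 and 5.33 CPM in WT and between 12.2 and 13.2 in KO (Krt8, Krt18 and Krt19 higher, Epcam, Cdh1 and Cldn3 not called, 1 of the 6 never above 3 counts), and Tubb3, 1 of 5 neural markers, was higher in KO. Endothelial, blood and skeletal muscle markers summed to at most 4.33, 3.40 and 0.236 CPM in any library. The part of these culture differences in the values below was not tested. Levels are relative to the whole library, and fewer cells of a kind cannot be told apart from less RNA per cell.

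The splicing factors were abundant. Together the 57 genes took 1.40% ± 0.0774 of all counts in WT and 1.41% ± 0.0085 in KO libraries (mean ± SD, n = 3 each). The WT libraries were at 1.49%, 1.35% and 1.36% and the KO libraries at 1.40%, 1.42% and 1.41%, so the KO values lay within the WT range. The hnRNP genes held most of this share, 0.819% ± 0.0453 in WT and 0.828% ± 0.0055 in KO, and the SR proteins came next with 0.239% ± 0.0179 and 0.231% ± 0.0060.

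Levels of different genes were compared in FPKM, which scales counts to gene length. Hnrnpa1, which binds pre-mRNA and shuttles with mRNA to the cytoplasm, was the most abundant member at 253 ± 22.7 FPKM in WT and 252 ± 4.83 in KO. Hnrnpab followed with 223 ± 14.3 and 239 ± 8.54 FPKM, Hnrnpa0 with 189 ± 14.9 and 213 ± 12.3, Hnrnpa2b1 with 144 ± 10.5 and 136 ± 1.49, and Hnrnpk with 124 ± 6.05 and 115 ± 3.58. In this order Hnrnpa1 and Hnrnpab overlapped within their SDs in both genotypes, while each of the next neighbours lay further apart than their SDs. Srsf2 led the SR proteins with a mean of 81.2 FPKM over the 6 libraries, and Snrpb led the Sm core with 114 FPKM.

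At the other end, 2 members were barely detected. Srsf12 had 2, 2 and 5 counts in the WT and 4, 4 and 0 in the KO libraries, and U2af1l4, a relative of U2af1, had 0, 0 and 3 counts in WT and 4, 1 and 2 in KO. At so few counts a difference was not detectable. The other 55 members had a mean of at least 10 CPM and ranged from 7.53 FPKM (Hnrnpr) to 252 FPKM (Hnrnpa1).

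**Figure D1:**
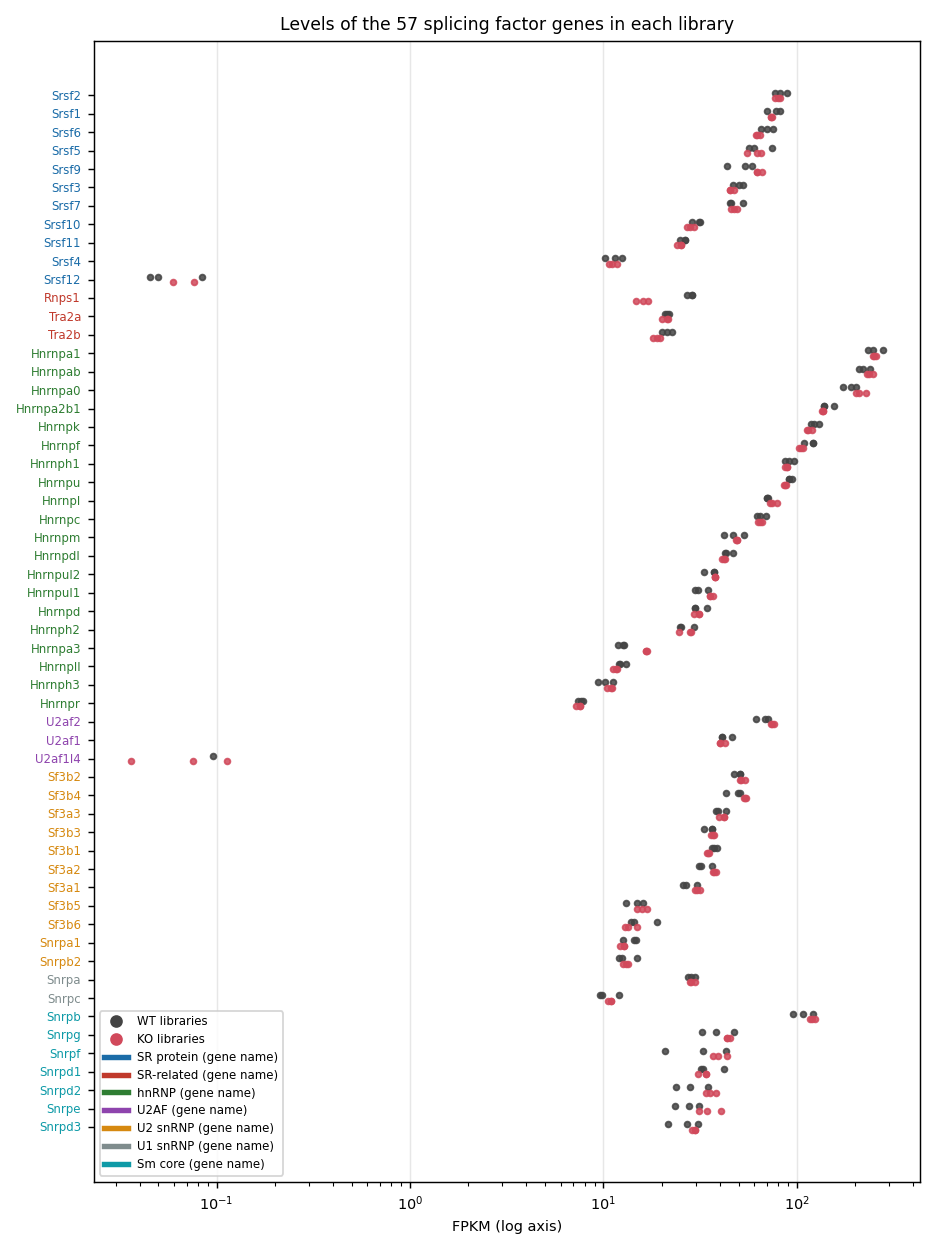
FPKM of each of the 57 genes on a log axis, with 1 point per library (dark, WT; red, KO; values of 0 are not drawn) and gene names coloured by family. The points of the genotypes lie close together for most genes, the hnRNP genes reach the highest levels, and Srsf12 and U2af1l4 lie near 0.05 FPKM.

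Between KO and WT, 6 of the 57 members passed an adjusted p-value of 0.05 (quasi-likelihood test of edgeR, adjusted by Benjamini-Hochberg over all genes tested). Rnps1 was lower in KO, and Hnrnpa3, Snrpe, Snrpd2, Snrpf and Srsf9 were higher. None was past a 2-fold change, which together with the adjusted p was met by 2.42% of all genes tested. Of all 26898 genes tested, 9.00% were called (4.97% higher and 4.03% lower). Members are well expressed, and among the 9105 protein-coding genes with a mean of at least 10 CPM 16.8% were called (8.33% higher and 8.46% lower), against 10.9% (6) of the 55 members at that level. That order of the shares turned when WT1 was left out, and without KO1 the shares were nearly equal, as given below with the other libraries.

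Most members differed little. The log2 fold change was under 0.2 in size for 49 of these 55 members (89.1%), against 74.5% of the 9105 genes, and the median was -0.01 for the members and -0.01 for the 9105 genes. For the 49 members not called, the 95% interval reached no lower than -0.37 (Sf3b6) and no higher than 0.33 (Sf3b4). These intervals use the spread of the trend and are too narrow for genes that vary more. For Sf3b6 the standard error was 0.09 in this fit and 0.12 with DESeq2. Every KO library lay above every WT library for 10 of the 55 members (18.2%, against 16.2% of the 9105 genes) and below for 9 (16.4%, against 19.7%), shares close to those of the other genes.

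The counts of calls leaned on single libraries. WT1 stood apart from the others: the chi-square of counts per gene was 14.3 and 13.2 between WT1 and the other WT libraries, 4.40 between WT2 and WT3 and from 2.63 to 3.05 between KO libraries. Without WT1, 14 members were higher and 3 lower, all at 10 CPM or more. That is 30.9% of the 55 well-expressed members, against 26.0% of protein-coding genes at that level and 12.3% of all genes tested, so the members' share was then above the background and not below it. Without WT2 1 was higher (Hnrnpa3) and 2 were lower (Rnps1 and Sf3b6), 5.45% of the 55 against 16.0% of those protein-coding genes. Without KO2 3 were higher and 1 was lower (7.27% against 11.7%), and without KO3 2 and 1 (5.45% against 10.95%). Without WT3 7 were higher and 1 was lower (14.5% against 16.4%), and without KO1 5 and 1 (10.9% against 10.8%). Of the 49 well-expressed members not called with all libraries, 38 had a log2 fold change that moved by over 1.5 times or changed sign when some library was left out (29 without WT1 and 25 without WT2), so their small values are not stable. With genes of low counts removed by filterByExpr, which also let the spread differ between genes, 2 members were higher and 1 was lower. That is 5.45% of the members, against 14.8% of protein-coding genes at 10 CPM or more.

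**Figure D2:**
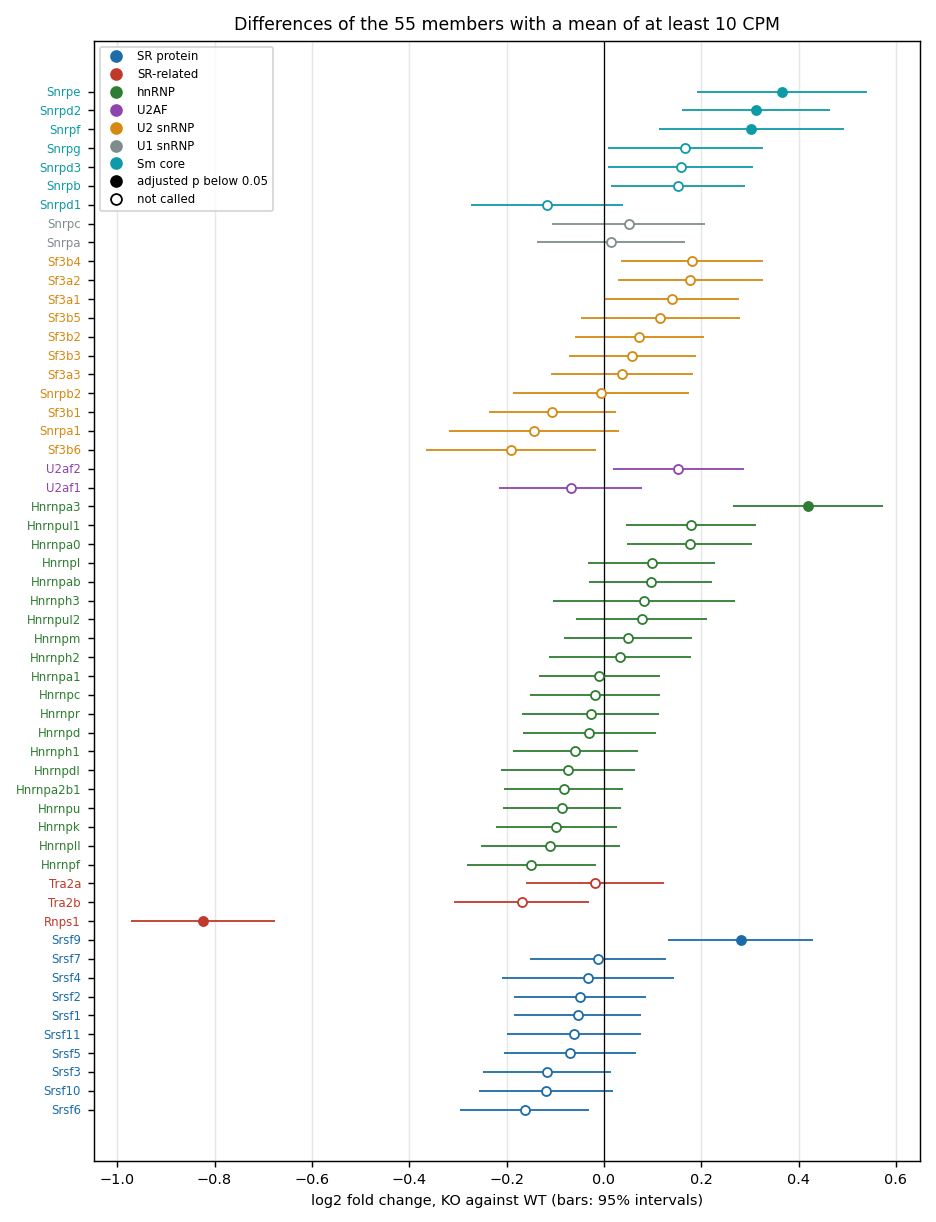
Log2 fold change of the 55 members with a mean of at least 10 CPM, KO against WT, coloured by family, with bars for 95% intervals and filled points for an adjusted p below 0.05. Rnps1 (-0.82) and Hnrnpa3 (0.42) lie farthest from 0, and most other points lie within 0.2 of it.

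Rnps1 showed the largest difference of any well-expressed member. It encodes an RNA-binding protein with a serine-rich domain that joins the exon junction complex and can activate splicing. Rnps1 (chromosome 17, from 24633539 to 24644875) was at 147, 139 and 149 CPM in WT and at 87.5, 82.7 and 75.9 CPM in KO. All KO libraries lay far below all WT libraries, with 56.5% of the WT mean. Its log2 fold change was -0.82 (standard error 0.08, adjusted p = 1.27e-25, edgeR), and it was called lower under each of the 18 alternatives tried.

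Rnps1 has a processed pseudogene, a copy of the mRNA placed elsewhere in the genome, with nearly the same sequence. Rnps1-ps (chromosome 6, from 7982541 to 7983383) matched the Rnps1 transcript over 843 bases with 5 mismatches, an identity of 99.4%. Of its windows of 150 bases, the length of 1 read, 134 of 694 (19.3%) occur without a mismatch in Rnps1. The stretch shown here covers positions 214 to 513 of the 846 coding bases of Rnps1 and positions 211 to 510 of the pseudogene transcript (GENCODE M21, GRCm38), and capitals mark the 3 positions at which they differ, so that a read lying between those positions is identical in both.
Rnps1: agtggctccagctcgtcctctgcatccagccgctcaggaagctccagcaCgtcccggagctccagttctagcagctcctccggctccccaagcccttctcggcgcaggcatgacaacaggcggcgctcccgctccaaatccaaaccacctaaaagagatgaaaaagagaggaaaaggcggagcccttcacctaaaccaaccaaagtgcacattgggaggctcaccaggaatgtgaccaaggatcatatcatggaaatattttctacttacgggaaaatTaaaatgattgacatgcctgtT
Rnps1-ps: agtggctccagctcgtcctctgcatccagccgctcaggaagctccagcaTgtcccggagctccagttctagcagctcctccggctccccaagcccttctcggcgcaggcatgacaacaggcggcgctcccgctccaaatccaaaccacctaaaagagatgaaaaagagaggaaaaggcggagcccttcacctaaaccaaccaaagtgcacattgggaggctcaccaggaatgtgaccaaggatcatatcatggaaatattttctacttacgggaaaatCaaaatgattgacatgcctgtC

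Rnps1-ps rose where Rnps1 fell. It had 81, 71 and 96 counts in WT and 794, 617 and 560 in KO, or 6.35, 5.06 and 5.15 CPM against 37.5, 37.1 and 35.0 CPM (log2 fold change 2.74, standard error 0.12). The pseudogene took 3.66% of the counts of both genes in WT and 30.8% in KO. Its rise made up for part of the fall of Rnps1 and not for all of it: the sum was 154, 144 and 154 CPM in WT and 125, 120 and 111 CPM in KO, with no overlap between genotypes. The log2 ratio of the sums was -0.35 (exact permutation p = 0.1, two-sided, the smallest that 3 against 3 libraries can give), and with the counts of both genes added before the edgeR fit the value was -0.35 (standard error 0.07, adjusted p = 6.51e-05). How reads that match both genes were assigned is not given in the sources used here.

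RNPS1 works in complexes with the products of Sap18 and of either Acin1 or Pnn, and none of these genes was called. Acin1 was at 235, 254 and 268 CPM in WT and 273, 285 and 294 in KO (log2 fold change 0.17, adjusted p = 0.117, edgeR), every KO value above every WT value. Pnn (0.07) and Sap18 (-0.12) overlapped between genotypes.

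Hnrnpa3, an hnRNP A/B protein that binds mRNA and telomeric repeats, had the largest rise of the 55 members with a mean of at least 10 CPM. It (chromosome 2, from 75489605 to 75499751) was at 64.5, 68.6 and 68.8 CPM in WT and at 89.9, 90.5 and 89.8 CPM in KO, tight values that did not overlap. The log2 fold change was 0.42 (standard error 0.08, adjusted p = 3.43e-06, edgeR), with a KO mean of 134% of WT. Leaving out each library in turn did not end the call.

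Hnrnpa3 has more listed pseudogene copies than any other member, 51, of which 34 had counts, and these copies held more counts than the gene itself. The most abundant, Gm6793 (chromosome 8, from 112740585 to 112741640), had 2240, 1863 and 2960 counts in WT and 2809, 2204 and 2328 in KO. It differs from the coding part of Hnrnpa3 at 7 positions and by 18 bases in gaps, and 745 of 1455 windows of 150 bases (51.2%) occur without a mismatch in Hnrnpa3. Positions 118 to 267 of the coding bases of Hnrnpa3 are shown with positions 146 to 295 of the Gm6793 transcript (GENCODE M21, GRCm38), with capitals at the 3 differing positions, because the first 108 bases hold none.
Hnrnpa3: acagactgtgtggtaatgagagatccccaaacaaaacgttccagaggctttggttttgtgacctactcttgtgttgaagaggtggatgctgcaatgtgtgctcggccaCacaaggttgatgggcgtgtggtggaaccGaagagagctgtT
Gm6793: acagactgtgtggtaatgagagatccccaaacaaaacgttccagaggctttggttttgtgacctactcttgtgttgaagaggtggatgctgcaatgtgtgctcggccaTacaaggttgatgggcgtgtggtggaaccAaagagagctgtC

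The copies of Hnrnpa3 outweighed it in the sum of both. The copies together were at 279, 234 and 262 CPM in WT and at 228, 228 and 243 in KO, and took 79.3% of the summed counts in WT and 72.1% in KO. The sum was 344, 302 and 331 CPM in WT and 318, 318 and 333 in KO, so the KO values lay within the WT range. The log2 ratio of the sums was -0.0086 (exact permutation p = 1), and with the copies added to the gene before the edgeR fit it was -0.01 (standard error 0.07, adjusted p = 0.961). The gene itself rose by 22.8 CPM, which with level copies would move the sum by 0.10 on the log2 scale. Against a standard error of 0.07 such a move is too small to be called. The sum is therefore no test of the gene's own rise, and how far reads of the gene and of its copies were exchanged was not tested.

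**Figure D3:**
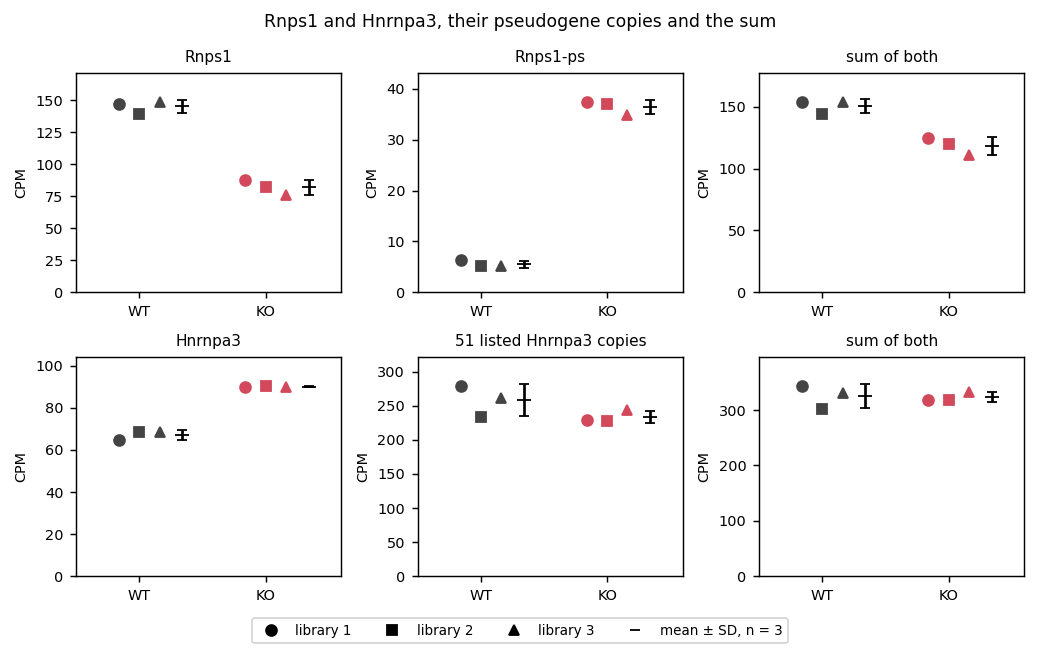
CPM in each library (circle, square and triangle for libraries 1, 2 and 3; dark, WT; red, KO; bars, mean ± SD, n = 3) of Rnps1, Rnps1-ps and their sum in the upper row, and of Hnrnpa3, its 51 listed copies and their sum in the lower row. The sum of Rnps1 and its pseudogene is lower in KO, and the sum of Hnrnpa3 and its copies overlaps between genotypes.

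Copies were listed for 35 of the 57 members, 207 in all, and 97 of them had counts. Rnps1-ps and 3 other copies were called, 4.12% of those with counts against 9.00% of all genes tested. Srsf3-ps rose from 8, 18 and 10 to 21, 39 and 58 counts, while Srsf3 was not called. In CPM Srsf3-ps was at 0.627, 1.28 and 0.537 in WT and at 0.991, 2.34 and 3.62 in KO, and the genotypes overlapped. Gm13092, a copy of Snrpf, fell from 82, 88 and 120 to 98, 49 and 58 counts (log2 fold change -0.76), and Gm13351, a copy of Hnrnpa3, from 8, 21 and 19 to 7, 10 and 1. For 12 members the copies averaged at least 50 counts, and with copies added before the fit Rnps1 and Snrpe were the called ones among these 12 (-0.35 and 0.29).

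The SR proteins were nearly level apart from Srsf9. Of the 11 genes 1 was higher, none was lower and 10 were not called, with a median log2 fold change of -0.06. Srsf9 (chromosome 5, from 115465236 to 115471139), among the shortest SR proteins, was at 97.3, 72.3 and 90.3 CPM in WT and at 103, 110 and 103 CPM in KO. The KO values were all above the WT values, but WT2 was well below the other WT libraries. Its log2 fold change was 0.28 (standard error 0.08, adjusted p = 0.0042, edgeR), it was 0.37 without WT1 (adjusted p = 7.16e-08), and it was 0.17 and not called without WT2 (adjusted p = 0.239). The call was also lost at little changed values without KO2 (0.25, adjusted p = 0.0901) and with filterByExpr (0.29, adjusted p = 0.0547).

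Srsf1, the founding SR protein, was at 466, 444 and 405 CPM in WT and 422, 425 and 420 in KO (log2 fold change -0.05). Srsf2, which binds exonic enhancers, was at 265, 242 and 229 against 237, 229 and 244 CPM (-0.05). Srsf3, which also couples splicing to export, was at 418, 398 and 371 against 361, 375 and 360 CPM (-0.12). Genotypes overlapped in all of these. Srsf7, another export adaptor, was at 187, 161 and 164 against 163, 175 and 169 CPM (-0.01). Srsf6 was the one SR protein with every KO library below every WT library, from 364, 339 and 319 to 299, 313 and 301 CPM (-0.16, adjusted p = 0.132), and 8 of 11 SR genes had their highest value in WT1.

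Of the SR-related pair Tra2a and Tra2b, which bind exonic enhancers as regulators of alternative exons, neither was called. Tra2b, listed by the study as an MCM8 interactor, was at 208, 196 and 188 CPM in WT and 176, 182 and 168 in KO, with no overlap (log2 fold change -0.17, standard error 0.07, adjusted p = 0.138, edgeR). Tra2a overlapped (-0.02).

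Among the 20 hnRNP genes Hnrnpa3 was called and 19 were not, with a median of -0.01, and 9 values were above and 11 below 0. Without WT1 5 were higher (Hnrnpa3, Hnrnpa0, Hnrnpab, Hnrnpm and Hnrnpul1) and 1 was lower (Hnrnpf), and without WT3 2 were higher (Hnrnpa3 and Hnrnpul1). The most abundant members moved little. Hnrnpa1 was at 878, 740 and 789 CPM in WT and 791, 785 and 814 in KO (-0.0099). Hnrnpk, which binds C-rich RNA, was at 841, 796 and 771 against 745, 774 and 730 CPM (-0.10). Hnrnpab was at 664, 586 and 621 against 648, 659 and 693 CPM (0.10), and these 3 genes overlapped between genotypes. Hnrnpa0 came nearest to the threshold, at 542, 463 and 516 CPM in WT and 546, 563 and 610 in KO without overlap (0.18, adjusted p = 0.0708, edgeR), and without WT2 it was at 0.11 and Hnrnpab at 0.05.

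Of the interactors among the hnRNP genes none was called with all 6 libraries. Hnrnpu, which binds RNA and chromatin as a scaffold, was the member with the highest CPM, at 1092, 1062 and 1065 in WT and 1013, 996 and 1024 in KO (-0.09). Hnrnpa2b1 was at 1029, 909 and 919 against 907, 902 and 888 CPM (-0.08). Both lay lower in every KO library, but without WT1 Hnrnpa2b1 was at -0.02 (adjusted p = 0.749). Hnrnpc, which binds U-rich RNA, was at 300, 278 and 273 against 273, 287 and 281 CPM (-0.02). Hnrnpm was at 422, 334 and 377 against 393, 387 and 393 CPM (0.05), with WT values on both sides of the KO values. Without WT1 Hnrnpm was called at 0.14 (adjusted p = 0.0140, edgeR), and without WT2 it was at -0.03 (adjusted p = 0.855). Hnrnpl, which binds CA repeats, was at 424, 419 and 421 against 437, 442 and 474 CPM (0.10). Hnrnpul2 was at 265, 236 and 269 against 271, 270 and 271 CPM (0.08), and for both the KO values were the higher ones, but without WT2 Hnrnpul2 was at 0.02 (adjusted p = 0.915).

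The factors that define the 3′ splice site and the branch site held 14 members, and none of them was called with all 6 libraries. Without WT1 U2af2 (0.20, adjusted p = 2.43e-04, edgeR) and Sf3b4 (0.22, adjusted p = 0.0022) were higher and Sf3b1 (-0.11, adjusted p = 0.0477) was lower, and without WT3 Sf3a2 was higher (0.26, adjusted p = 0.0364). Without WT2 U2af2 was at 0.09 (adjusted p = 0.587) and Sf3b4 at 0.11 (adjusted p = 0.548), and with a correction for GC content and gene length both were at 0.07 and not called. U2af2, the large U2AF subunit that binds the polypyrimidine tract, was at 293, 253 and 283 CPM in WT and 306, 302 and 315 in KO (0.15, adjusted p = 0.178, edgeR). U2af1, the small subunit that contacts the AG at the end of the intron, was at 121, 106.1 and 108 against 105, 110 and 104 CPM (-0.07). The subunits thus had opposite signs, and neither was called. Sf3b1, the SF3B scaffold at the branch site, was at 422, 441 and 418 against 403, 389 and 397 CPM without overlap (-0.11, adjusted p = 0.432). Sf3b6, a small SF3B subunit near the branch site, had the second lowest value of the well-expressed members, at 54.2, 39.8 and 41.5 against 38.5, 42.9 and 36.9 CPM (-0.19, adjusted p = 0.212). WT1 was the one WT library above all KO libraries, and this gene was called at -0.27 without WT2 (adjusted p = 0.0480) and stood at -0.05 without WT1 (adjusted p = 0.781). The 11 U2 genes spanned -0.19 to 0.18 with a median of 0.06.

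In the U1 snRNP, Snrpa (0.02) and Snrpc (0.05) overlapped between genotypes. The Sm core gave 3 of the 5 calls of higher members. Of its 7 genes 3 were higher (42.9%, against 8.33% of well-expressed protein-coding genes and 4.97% of all genes tested), none was lower and 4 were not called, and the median log2 fold change was 0.17, the highest of the families with 7 or more members. Snrpe was at 42.8, 32.4 and 38.4 CPM in WT and 43.2, 47.4 and 55.9 in KO (0.37, standard error 0.09, adjusted p = 8.72e-04, edgeR). Snrpd2 was at 90.7, 62.2 and 74.5 against 93.3, 88.8 and 99.98 CPM (0.31, standard error 0.08, adjusted p = 0.0012). Snrpf was at 37.2, 18.0 and 28.6 against 31.8, 37.6 and 33.8 CPM (0.30, standard error 0.10, adjusted p = 0.0243). Only for Snrpe among the 7 genes did the KO values stand clear of the WT values, and by a small gap between WT1 and KO1.

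The Sm calls depended on single libraries and on the test. Without WT1 6 of the 7 genes were higher, against 11.7% of well-expressed protein-coding genes. Snrpf was then at 0.54 (adjusted p = 4.79e-07, edgeR), Snrpd2 and Snrpe at 0.45 each, and Snrpg (0.31), Snrpd3 (0.27) and Snrpb (0.24) joined them. WT2 was the lowest of the 6 libraries for 6 of the 7 Sm genes, and for 22 of the 55 well-expressed members (40.0%), against 22.1% of the 9105 protein-coding genes. Without WT2 no Sm gene was called, and the log2 fold change fell to 0.07 for Snrpf (adjusted p = 0.774) and to 0.19 for Snrpd2 (adjusted p = 0.152), while Snrpe was at 0.27 (adjusted p = 0.0506). Without KO3 none of these was called either, at 0.32 for Snrpf (adjusted p = 0.0745), 0.27 for Snrpd2 (adjusted p = 0.0553) and 0.27 for Snrpe (adjusted p = 0.144). DESeq2 gave almost the same values with no call for Snrpd2 (0.31, adjusted p = 0.0521) and Snrpf (0.30, adjusted p = 0.664), and limma-voom did so for Snrpe (0.36, adjusted p = 0.0512) and Snrpf (0.36, adjusted p = 0.230). With its copies added before the edgeR fit Snrpf was at 0.15 (adjusted p = 0.400). Summed over the family the Sm genes took 0.0664%, 0.0480% and 0.0551% of counts in WT and 0.0635%, 0.0637% and 0.0661% in KO, so that WT1 lay above and WT2 and WT3 below all KO libraries. Snrpd1 was the exception in sign, at 86.7, 67.4 and 66.4 against 69.9, 63.2 and 69.8 CPM (-0.12). Snrpb (chromosome 2, from 130013555 to 130021323) lies within 10 Mb of Mcm8, on the chromosome that carries the edited allele, and was not called at 225, 178 and 200 against 217, 221 and 232 CPM (0.15, adjusted p = 0.198). It was called at 0.24 without WT1 (adjusted p = 2.29e-05, edgeR) and was at 0.07 without WT2 (adjusted p = 0.710). Snrpb2, Srsf6 and the called Hnrnpa3 lie on the same chromosome, 10.2, 30.1 and 57.2 Mb from Mcm8. Any part of this position in their values was not tested.

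**Figure D4:**
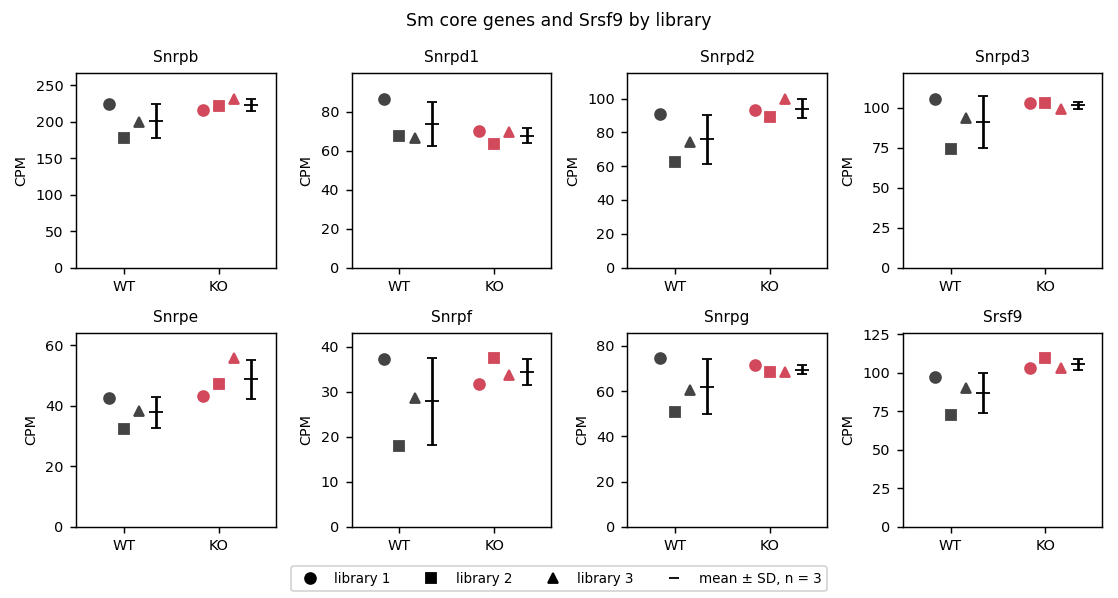
CPM of the 7 Sm core genes and of Srsf9 in each library (circle, square and triangle for libraries 1, 2 and 3; dark, WT; red, KO; bars, mean ± SD, n = 3), each axis from 0. The square of WT2 is the lowest point in every panel except Snrpd1, and the KO points are closer together than the WT points in most panels.

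The sign of a member's difference went with base composition. Over the 55 members Spearman's rho between the log2 fold change and the GC content of the longest transcript was 0.41, and over 9096 protein-coding genes with at least 10 CPM it was 0.39. These are correlations across genes that share the same 6 libraries and are given as a description. The 28 members with a GC content of at least the median of 45.0% had a median log2 fold change of 0.09, and the 27 others of -0.06. Sf3a2, with the highest GC content (62.2%), was at 0.18 and, with a correction for GC content and gene length, at -0.06. Tra2b (39.7%) was at -0.17 and with the correction at -0.12. Hnrnph1, with the lowest GC content (37.1%), and Snrpb2 (39.3%) were nearer 0 without it, at -0.06 and -0.0057. Hnrnpa3 (39.9%) and Rnps1 (51.04%) lay away from this trend. With that correction 7 members were higher and 2 were lower, the added ones being Snrpd3, Snrpg and Hnrnpf. The share called was 16.4% of the 55 members, against 23.2% of protein-coding genes of at least 10 CPM. Of those protein-coding genes 6.59% were higher, so the members' share was below the background in all and above it for higher genes. Whether the trend arose in the libraries or in the cells was not tested.

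**Figure D5:**
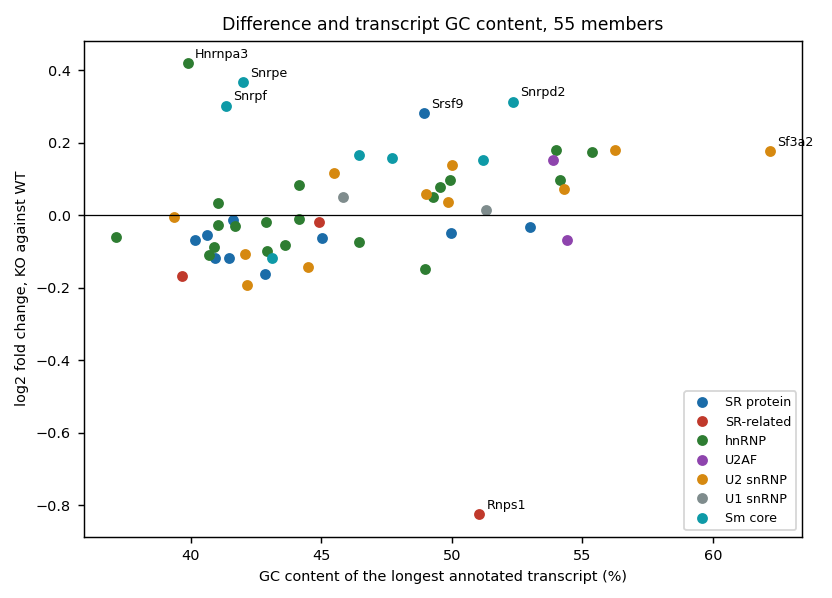
Log2 fold change (KO against WT) of the 55 members against the GC content of the longest annotated transcript in percent, 1 point per gene, coloured by family. Points rise from left to right with a rho of 0.41, and Rnps1 lies far below the others.

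The other genes of splicing were looked at by lists. Of 151 tested genes on 7 lists, 2 were higher, 8 lower and 141 not called (6.62% called, against 9.00% of all genes tested). Of the 135 with a mean of at least 10 CPM, 9 were called (6.67%), against 16.8% of protein-coding genes at that level. No gene was called among 10 SR protein kinases and phosphatases, 10 LSm proteins, 14 branch site and U2 accessory factors, 9 minor spliceosome proteins or 21 genes of the exon junction complex, export and nonsense-mediated decay. Of 35 proteins of the U1, U5, U4/U6 and Prp19 complexes 2 were lower. Cwc22, which loads the exon junction complex onto the spliceosome, fell from 226, 233 and 240 to 176, 179 and 179 CPM (-0.39, standard error 0.07), and Txnl4a, a U5 protein, from 49.0, 36.4 and 38.9 to 35.0, 31.0 and 34.2 CPM (-0.31).

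The other 8 calls lay among 52 tested regulators of alternative splicing (15.4%, against 9.00% of all genes tested), and 7 of the 42 at 10 CPM or more were called (16.7%, against 16.8%). Nova1, a regulator best known from neurons, fell by 1.01 on the log2 scale, from 15.1, 15.7 and 14.4 to 7.84, 7.63 and 6.81 CPM. Celf2 fell from 111, 116 and 119 to 86.6, 91.4 and 87.2 CPM (-0.38), and Mbnl1, which often acts against CELF proteins, from 223, 249 and 239 to 207, 205 and 193 CPM (-0.23). Syncrip (-0.25), Matr3 (-0.26) and Zranb2 (-0.22) also fell, and genotypes did not overlap for any of these. Celf4 rose from 11.8, 10.3 and 10.1 to 14.1, 14.9 and 15.4 CPM (0.47), and Rbm47, known from epithelial cells, from 1.10, 0.499 and 1.29 to 2.55, 1.98 and 2.06 CPM (1.17), beside the higher epithelial markers given above. Without WT1 10 of the 151 genes were higher and 12 lower, without WT2 4 and 8, without KO1 1 and 4, and without KO2 and without KO3 2 and 4 each. The share without WT1 was 14.6%, against 12.3% of all genes tested, and with the GC and length correction 12.6% against 11.3%, so that against all genes the order turned. Among genes of at least 10 CPM it did not, at 14.8% against 26.0% and 12.6% against 23.2% of protein-coding genes.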

How the data were processed

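The authors prepared libraries from MEF RNA with a NEBNext Ultra kit, sequenced read pairs of 150 bases, aligned them with HISAT2 2.0.5 to the Ensembl 106 mouse assembly and counted reads per gene with featureCounts 1.5.0-p3. They deposited raw counts and FPKM for each gene. The labels name GRCm38, but only 1462 of 52044 shared genes start where GENCODE M21 (GRCm38) places them, and coordinates are printed as deposited.

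Genes with a deposited count above 0 in any library entered a quasi-likelihood fit of edgeR 4.0.16 (TMM, no covariate; R 4.3.3), with Benjamini-Hochberg adjustment over 26898 genes. The prior degrees of freedom were infinite, so each gene took the spread of the trend, and genes that vary more get p-values that are too small. Values after ± are SDs. Alternatives used DESeq2 1.42.0, limma 3.58.1 (voom, and log2(FPKM + 1) or log2(FPKM + 0.1) of the deposited FPKM), other scalings, filters and a replicate block, and left out each library. Corrections for GC content with gene length and for copies summed into members were added after seeing the data. Copies are pseudogenes whose deposited description or name points to a member. Same-numbered WT and KO libraries did not deviate together (r = -0.01, -0.02 and 0.04). No deposited library was a duplicate.

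Genes were named by a rule: called members, the 3 highest and lowest, a list of 16 core factors, the study's interactors, members within 10 Mb of Mcm8, the 5 most abundant, and called copies and list genes. Srsf6, Srsf12, U2af1l4 and the partners of Rnps1 were added. Members and lists were chosen with earlier results of these data known. Reads, exon usage and splicing events were not analysed here.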

Additional observations from a re-analysis of the deposited data

How the results depend on the processing

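Rnps1 was called lower in all 18 alternatives (log2 fold change from -0.87 to -0.35) and Mcm8 in each alternative computed for it, while Hnrnpa3 was called in 17 and reversed to -0.011 with copies summed. The main counts were 5 higher and 1 lower member and 2 higher and 8 lower other splicing genes. The number of higher members was 2 with filterByExpr and with counts above 0 in every library, 3 with limma-voom, with DESeq2 and with copies summed, 1 with limma on either FPKM scale and from 1 to 14 when each library was omitted. The number of lower members was 2 with the GC and length correction and from 1 to 3 when each library was omitted. Other splicing genes higher in KO numbered 5 with protein-coding genes alone in the adjustment, 1 with limma-voom and DESeq2, 0 with limma on either FPKM scale, 6 with the GC and length correction and from 1 to 10 when each library was omitted. Those lower numbered 3 and 4 with limma on log2(FPKM + 1) and log2(FPKM + 0.1), 13 with the GC and length correction and from 4 to 12 when each library was omitted. The cause was not tested.

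With the replicate number as a block 5 members were higher and 1 lower, and 3 and 8 other splicing genes. The numbers do not pair the libraries, and no called member lost its call.

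Signs near 0 were not stable among members that were not called with all libraries. Under library totals without TMM Srsf7 was at 0.0097, Hnrnpa1 at 0.012 and Hnrnpc at 0.0037, and with the GC and length correction Srsf1 was at 0.0073, Srsf7 at 0.050 (0.0498), Hnrnpa1 at 0.034, Hnrnpc at 0.030 (0.0300) and Hnrnpl at -0.012. When each library was omitted, Srsf2 ranged from -0.10 (-0.097) to 0.0086, Srsf7 from -0.052 to 0.055, Hnrnpa1 from -0.065 to 0.060 (0.0596), Hnrnpc from -0.046 to 0.024, Snrpd1 from -0.19 to 0.016 and Hnrnpm from -0.030 (-0.0301) to 0.14, the last of which passed the threshold (without WT1).

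The log2 ratio of the sum with copies was -0.83 for Rnps1 alone and from -0.39 to -0.30 when each library was omitted. For Hnrnpa3 it was 0.42 for the gene alone, 0.014 without TMM and from -0.061 to 0.032 when each library was omitted. The share of members in KO was 1.46% with their pseudogenes and 1.44% of protein-coding counts.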
